A study of Mus musculus with 7 samples.

Results

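The genes described here mark the progenitor cells of fat: Pdgfra, Ly6a, Cd34, Dpp4, Pi16, Cd55, Icam1, Dact2, Fap and Thy1. They were taken as every locus of the deposited group table that names 1 of these 10 symbols, which gave 11 loci of 35534. RNA was sequenced from the gonadal fat of male CD-1 pups on postnatal day 21. The BDE-47 group was 4 pups whose dams were fed BDE-47, the brominated flame retardant 2,2',4,4'-tetrabromodiphenyl ether, at 0.2 mg/kg body weight daily in tocopherol-stripped corn oil. The control group was 3 pups whose dams received that oil alone. Dosing of the dams ran from pregnancy day 8 to postpartum day 21, through gestation and nursing. Each pup came from a different litter of an outbred stock, gonadal fat of the right side was used, and the authors set aside a control library of lower depth.

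The table holds 1 value per group in FPKM, which scales fragments by transcript length and by the number of mapped fragments and so allows levels to be compared between genes. No values of single pups are in it, so no error stands beside any value below and no difference was tested across pups. Differences are given as log2 ratios of BDE-47 over control. A locus counts as measured where it carries a gene name and lies above 1 FPKM in at least 1 group, the filter of the published work. In all, 14262 loci passed it, and the 11 loci of the 10 genes were all among them. Library depth is unknown from these values. The pads showed the genes of fat cells in both groups: Adipoq, the adiponectin gene, stood at 3692 FPKM in control pups and 3666 FPKM in BDE-47 pups, and Fabp4, a fatty acid-binding protein of fat cells, at 32996 and 31652 FPKM.

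White fat grows from progenitors in the stroma between the fat cells and along its vessels. These cells carry the PDGF receptor alpha, and in mice also Sca-1 (encoded by Ly6a) and CD34. In mouse fat, cells with DPP4 and PI16 on their surface lie in the connective tissue around the pad and can give rise to ICAM1-positive preadipocytes, which are closer to becoming fat cells. None of these proteins is limited to progenitors. CD34 and Sca-1 are also carried by endothelial cells, ICAM1 by endothelial cells and leukocytes, Thy-1 by T cells and neurons, and CD55 by many cell types. Dact2 differs from the others on the list, because its protein binds Dishevelled inside the cell and is not on the surface.

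2 of the genes lie beside close relatives, and their coding sequences were compared with those of the relatives. Ly6a (chr15:74994877-74998031 of GRCm38, minus strand, GENCODE vM21) shares its locus in the table with Ly6c1, a gene of the same family that lies 45986 bases away. The first 120 coding bases of each are printed 5′ to 3′, with the bases that differ between them in capitals; they come from chr15:74996519-74997604 and chr15:75047420-75048511, with an intron between their ends.
Ly6a: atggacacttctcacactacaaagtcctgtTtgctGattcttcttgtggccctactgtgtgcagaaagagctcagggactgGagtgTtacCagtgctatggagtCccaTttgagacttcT
Ly6c1: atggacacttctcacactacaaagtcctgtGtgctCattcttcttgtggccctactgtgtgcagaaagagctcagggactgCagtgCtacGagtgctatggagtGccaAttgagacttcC
Of these 120 bases, 112 were identical, and the longest run without a difference over the whole coding sequences was 45 bases, shorter than a read. Cd55 (chr1:130439027-130462744, minus strand) has a relative, Cd55b, 16017 bases away, and here the run was 198 bases, longer than a read. A stretch of 120 bases within it, from a single exon of each gene (chr1:130461852-130461971 in Cd55 and chr1:130422145-130422264 in Cd55b), had no difference.
Cd55 and Cd55b: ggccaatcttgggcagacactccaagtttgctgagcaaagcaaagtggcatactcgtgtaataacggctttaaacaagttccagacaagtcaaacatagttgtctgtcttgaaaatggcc
The reads were made in 75 cycles. Of all different 75-base stretches in the coding transcripts of Ly6a, 6.33% also occurred in transcripts of other genes, which were Ly6c1 (77 stretches) and Ly6i (6). Those shared with Ly6c1 did not lie wholly within the coding sequences compared above. For Cd55 it was 7.61%, with 231 of 260 shared stretches in Cd55b. For Icam1 it was 17.8%, all in Gm47079, a gene annotated on the opposite strand of the same region. Pdgfra, Cd34 and Pi16 shared 4.26%, 2.95% and 2.72%, mostly with antisense genes that overlap them. Dpp4, Dact2, Fap and Thy1 shared 0 stretches. The strand setting of the counting is not given in the sources used here. How reads from shared stretches were divided between a gene and its antisense partner is therefore not known. Gm16897, the partner of Cd34, has a locus of its own, at 2.51 FPKM in control pups and 3.23 FPKM in BDE-47 pups.

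The group values of the 10 genes lay within 2-fold of each other in the fat of BDE-47 and control pups. 0 of the 10 differed by 2-fold or more in either direction, where 1.04% of all measured loci were at least 2-fold higher and 4.24% at least 2-fold lower in BDE-47 pups. At the smaller threshold of 1.5-fold, 0 were higher (2.73% of all measured loci) and 1, Dact2, was lower (8.00%). With Cd55 taken at its more abundant locus, the ratio was above 0 for 4 genes and below 0 for 6, against 50.8% and 47.3% of all measured loci. The median log2 ratio of the 10 genes was −0.14, and that of all measured loci was 0.01. In a whole fat pad, fewer cells of a type and less RNA per cell cannot be told apart.

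**Figure D1:**
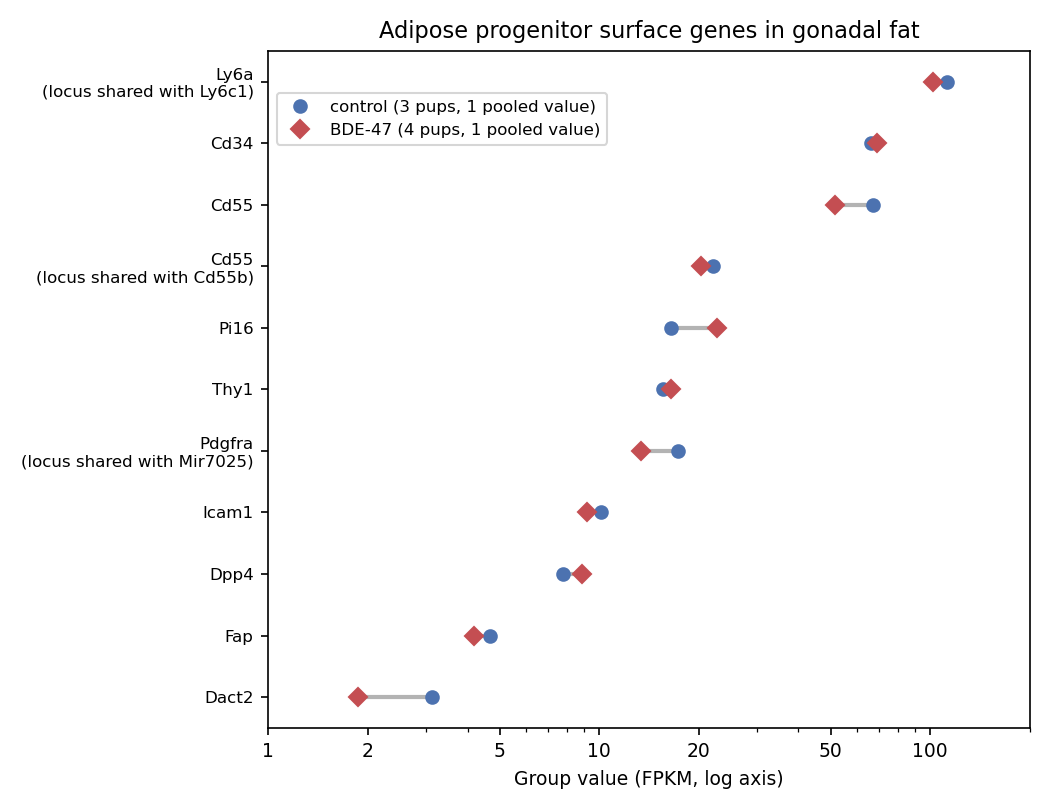
Group values of the 10 genes in FPKM on a log axis, 1 row per locus, with control as blue circles and BDE-47 as red diamonds; each point is a single pooled value per group, so there are no error bars. The pairs of points lie close together from Ly6a at over 100 FPKM down to Dact2, where the control value is 3.12 and the BDE-47 value 1.87 FPKM.

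The general markers of fat progenitors covered a wide range of levels. Ly6a, which encodes the GPI-anchored protein Sca-1, was the most abundant, at 112 FPKM in control pups and 102 FPKM in BDE-47 pups, with a log2 ratio of −0.14. This value is that of the locus it shares with Ly6c1. Another locus of the same span, which joins Ly6c1, Ly6c2 and Ly6i and so also carries the name of Ly6c1, stood at 112 and 118 FPKM. Ly6f, a family member with the same span in the table, did not pass the filter, at 0.973 and 0.0176 FPKM. Cd34, the gene of a sialomucin of progenitor and endothelial surfaces (chr1:194938819-194961279), stood at 66.3 and 69.1 FPKM, with a log2 ratio of 0.06. Its level was a little higher in BDE-47 pups, by 1.04-fold.

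Pdgfra, the receptor tyrosine kinase that binds PDGF and defines these cells (chr5:75152292-75198215, plus strand), stood at 17.3 FPKM in control pups and 13.4 FPKM in BDE-47 pups. The value was 1.29-fold lower in BDE-47 pups, and 13.3% of all measured loci had a lower ratio. Its locus also carries the name of Mir7025, a microRNA gene of 74 bases inside it. Thy1, the gene of a GPI-anchored glycoprotein of fibroblasts and T cells (chr9:44043384-44048579), stood at 15.6 and 16.4 FPKM, with a log2 ratio of 0.08. Fap, which encodes a membrane-bound serine protease of activated fibroblasts (chr2:62500943-62574075, minus strand), was among the least abundant, at 4.69 and 4.20 FPKM. Its log2 ratio of −0.16 was near the lower quartile of all measured loci, 24.7% of which had a lower one.

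Pi16 and Dpp4, which are among the markers of the DPP4-positive side, were higher in BDE-47 pups, and Fap, a relative of Dpp4, was lower. The direction of Pi16 and Dpp4 was not shared by the side as a set. Cd55 was lower at both of its loci, and of 13 further measured genes of the DPP4-positive state, 6 lay above and 7 below 0. Pi16, which encodes a GPI-anchored peptidase inhibitor-like protein (chr17:29317680-29330593), stood at 16.4 FPKM in control pups and 22.6 FPKM in BDE-47 pups. This was the highest ratio of the 10 genes, 1.38-fold or 0.46 on the log2 scale, and 95.5% of all measured loci had a lower one. Dpp4, which encodes a protease that cuts dipeptides from chemokines and gut hormones (chr2:62330073-62412231), stood at 7.78 and 8.88 FPKM, 1.14-fold higher in BDE-47 pups. Fap is its closest relative in sequence family and lies 88711 bases from it on the same chromosome and strand. These neighbours differed in direction, with ratios of 0.19 for Dpp4 and −0.16 for Fap.

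Cd55, the gene of decay-accelerating factor, which protects cells from complement, appeared in 2 loci of the table. The locus named Cd55 alone stood at 67.2 FPKM in control pups and 51.6 FPKM in BDE-47 pups, 1.30-fold lower. The locus that joins Cd55 and Cd55b stood at 22.0 and 20.3 FPKM, with a log2 ratio of −0.12. Both values were lower in BDE-47 pups. The span of these loci also held 5 loci without a name, all below 4 FPKM. The identifiers of the table follow the strand: of 120 loci of a single gene within 100 identifiers of the Cd55 locus, 110 are genes of the plus strand, while 112 of 121 around the joined locus are of the minus strand. Cd55 itself lies on the minus strand, and Gm16083 is annotated opposite to it. Which transcripts each Cd55 locus holds is not given in the table, so neither value can be taken as that of Cd55 mRNA alone.

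Icam1, which marks committed preadipocytes and binds leukocyte integrins (chr9:21015985-21028817, plus strand), stood at 10.1 FPKM in control pups and 9.19 FPKM in BDE-47 pups. Its log2 ratio of −0.14 was the same as that of Ly6a. Dact2, an intracellular inhibitor of Nodal signalling in fish and a partner of Dishevelled (chr17:14195052-14204304, minus strand), had the lowest level and the lowest ratio. It stood at 3.12 and 1.87 FPKM, 1.67-fold lower in BDE-47 pups. Of the 4480 measured loci with a mean between 1 and 5 FPKM, 12.7% were at least 1.5-fold lower. With 1 FPKM added to both groups the log2 ratio of Dact2 was −0.52 in place of −0.74.

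**Figure D2:**
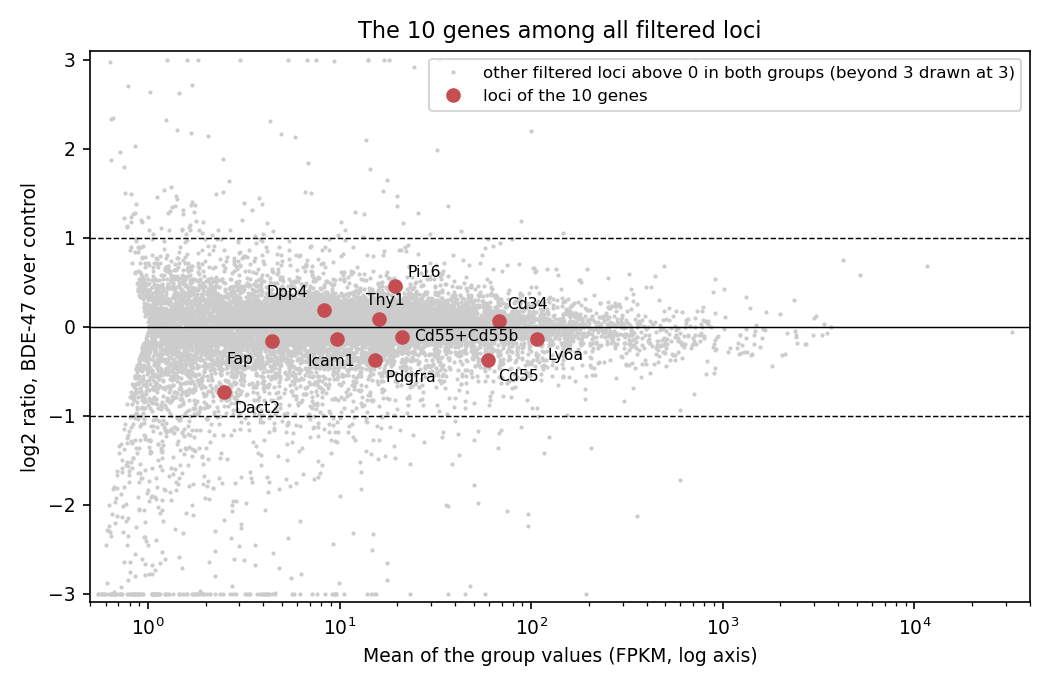
log2 ratio of BDE-47 over control (vertical axis) against the mean of the group values in FPKM (horizontal log axis), with the 11 loci of the 10 genes in red and the other measured loci above 0 in both groups in grey; dashed lines mark 2-fold. The red points lie between the dashed lines, from −0.74 for Dact2 to 0.46 for Pi16, inside the cloud of the other loci, of which those beyond 3 in either direction are drawn at 3.

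The other genes of the progenitor states had ratios on both sides of 0. Over all measured loci, 47.3% had a ratio below 0, 8.00% were at least 1.5-fold lower and 2.73% at least 1.5-fold higher. Of 15 further surface genes of these cells, all measured, 0 were at least 2-fold different. 2 were at least 1.5-fold lower, and 11 had a ratio below 0, with a median log2 ratio of −0.16. Anpep, the gene of aminopeptidase N, stood at 33.6 FPKM in control pups and 19 FPKM in BDE-47 pups, and Cd24a, the gene of a small GPI-anchored glycoprotein, at 9.92 and 5.39 FPKM. Both genes are also used by leukocytes or epithelia. Of 15 genes of the DPP4-positive interstitial state, 13 were measured and 0 were 1.5-fold different. Their median was −0.03, and the most abundant, Efemp1, a gene of the elastic matrix, stood at 153 and 150 FPKM.

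Among 13 genes of the ICAM1-positive committed state, 12 were measured and divided evenly, 6 above and 6 below 0. Pparg, the master regulator of fat cell formation, stood at 105 FPKM in control pups and 164 FPKM in BDE-47 pups. Hsd11b1, which makes active glucocorticoid, stood at 40.2 and 70.0 FPKM. Cxcl14, a chemokine gene, stood at 9.38 and 4.56 FPKM, 2.06-fold lower and the sole gene of these lists past 2-fold. Pparg and Fabp4 are also on the adipocyte marker list used below, and Lpl, Cd36 and Cebpa of this list are also genes of mature fat cells. In a whole pad, the even split can therefore not be read as that of preadipocytes. Of the 11 genes that go with F3 (CD142) on regulatory cells of the fat stroma, 7 lay above 0 and 0 were 1.5-fold different. F3 itself, the tissue factor gene, stood at 36.3 and 28.4 FPKM, and Mgp, a matrix gene, at 177 and 205 FPKM.

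Of 15 genes listed for the stromal matrix, 13 had a ratio below 0 (47.3% of all measured loci), and the median was −0.30. Their summed level, in which Gsn weighs most, was 4291 FPKM in control and 4415 FPKM in BDE-47 pups. The direction of this sum is that of Gsn and does not stand for the other genes. Col3a1, a fibrillar collagen gene, stood at 357 FPKM in control pups and 265 FPKM in BDE-47 pups, while Dcn, the decorin gene, stood at 584 and 576 FPKM. Gsn, the gene of the actin-binding protein gelsolin and not strictly a matrix gene, stood at 2106 and 2592 FPKM. Col6a3, chosen after its value was seen as the gene past 1.5-fold, stood at 52.3 and 32.0 FPKM. Over these 5 lists together, 63 loci were measured, of which 1 was at least 2-fold lower and 0 higher. 39 lay below and 23 above 0, against 47.3% and 50.8% of all measured loci.

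The partners and relatives of the 10 genes were described in the same way. Of 6 PDGF ligands and other PDGF receptors, 0 were 1.5-fold different. Pdgfrb, the sister receptor of mural cells, stood at 23.8 FPKM in control pups and 21.4 FPKM in BDE-47 pups, Pdgfa, the ligand with the highest level, at 23.1 and 20.3 FPKM, and Pdgfb, which recruits mural cells, at 16.6 and 13 FPKM. Of the peptidase relatives of Dpp4 and Fap, 6 of 8 were measured and 0 were 1.5-fold different. Of 8 measured substrates and partners of DPP4, 1 was past 1.5-fold: Ada, adenosine deaminase, which human DPP4 binds, at 4.89 and 2.64 FPKM (named after its value was seen). Cxcl12, a chemokine that DPP4 cuts, stood at 66.3 and 56.5 FPKM.

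Of 6 measured ICAM relatives and leukocyte integrins, which include receptors of ICAM1, 2 were at least 1.5-fold lower (8.00% of all measured loci). Itgb2, the shared beta chain of leukocyte integrins, stood at 50.9 FPKM in control pups and 29.2 FPKM in BDE-47 pups, and Itgax, the CD11c gene, at 18.9 and 9 FPKM. These are leukocyte genes. Of the 12 macrophage markers given below, 11 had a ratio below 0, and a link between these values was not tested. Of 9 measured loci of the Ly6 and uPAR family, 2 were at least 1.5-fold lower: Plaur, the urokinase receptor gene, at 9.13 and 5.28 FPKM, and Ly6d at 2.13 and 0.959 FPKM. Among complement regulators, the relatives of Cd55 in function, 0 of 7 loci were 1.5-fold different. Serping1, the C1 inhibitor gene, stood at 292 and 294 FPKM, and the joined locus of Cd59a and Cd59b, which block the membrane attack complex, at 118 and 109 FPKM.

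Of 5 measured loci of the CAP domain family to which Pi16 belongs, 2 were at least 1.5-fold lower (8.00% of all measured loci). Glipr1 stood at 9.25 FPKM in control pups and 5.98 FPKM in BDE-47 pups, and the joined locus of Crisp1 and Crisp3, whose first gene is made by the epididymis, stood at 18.6 and 0.171 FPKM. Of 3 measured genes of the CD34 family and the selectins, 0 were past 1.5-fold, with Podxl, a vessel sialomucin, at 18.8 and 22.5 FPKM. Of 9 measured Dact relatives and Dishevelled partners, 0 were past 1.5-fold. Ctnnd1, the p120 catenin gene, stood at 36.5 and 37.5 FPKM. Of 7 genes of binding partners of Thy-1 (5 integrin chains, the syndecan gene Sdc4 and the adhesion receptor gene Adgre5), 1, Sdc4 (chosen after its value was seen), was past 1.5-fold, at 29.2 and 16.8 FPKM.

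**Figure D3:**
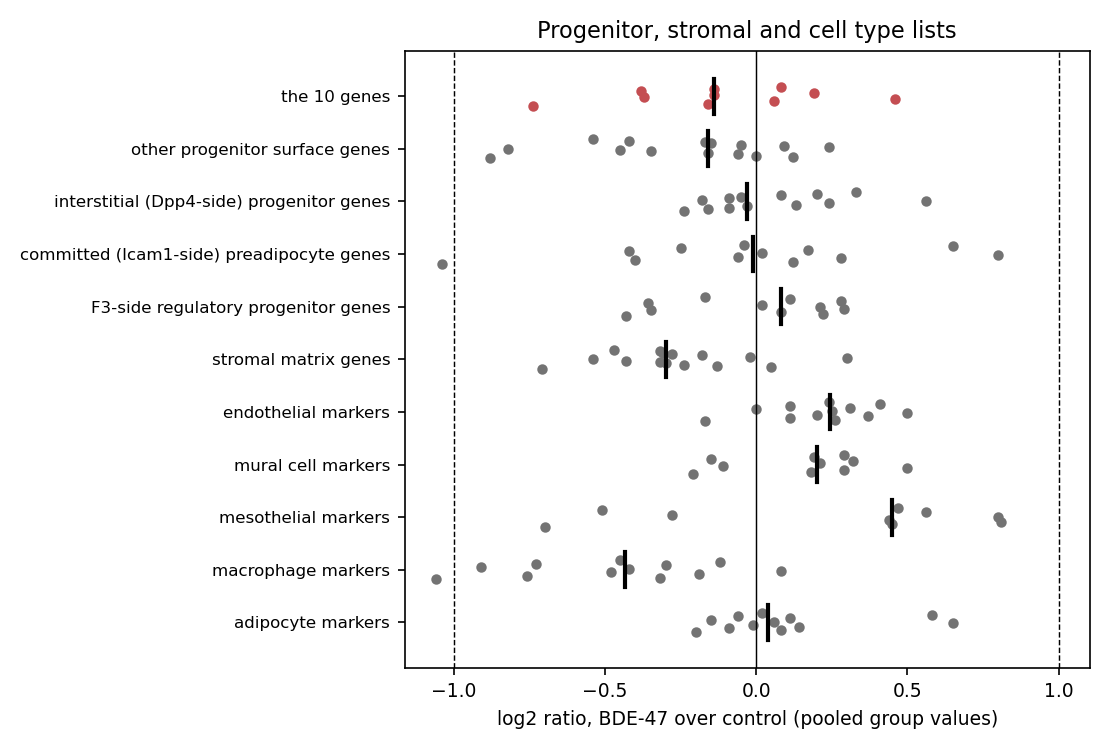
log2 ratios of BDE-47 over control, 1 point per measured locus, for the 10 genes (red) and for lists of related genes and cell type markers (grey); black bars are list medians and dashed lines mark 2-fold. The 10 genes centre on −0.14, between the endothelial markers at 0.25 and the macrophage markers at −0.44.

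Markers of cell types that share these genes had group values of their own that differed, and their part in the values above was not tested. Of 12 endothelial markers, 10 had a ratio above 0 (50.8% of all measured loci) and 0 were past 1.5-fold. Their summed level was 434 FPKM in control pups and 477 FPKM in BDE-47 pups. Cdh5, the vessel cadherin gene, stood at 74.5 and 80.4 FPKM. The 10 mural cell markers summed to 464 and 503 FPKM, with 7 above 0, and the 4 measured lymphatic markers to 32.4 and 37.5 FPKM, with 3 above 0. Of 9 measured mesothelial markers, 6 lay above 0, and they summed to 118 and 158 FPKM. Upk3b, a uroplakin gene of the mesothelium that covers the pad, stood at 28.4 and 49.5 FPKM, and Gpm6a, a membrane glycoprotein gene, at 10.1 and 17.8 FPKM. Krt8, a keratin gene of simple epithelia, lay the other way, at 13.6 and 8.40 FPKM.

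Leukocyte markers lay mostly the other way. Of 12 macrophage markers, 11 had a ratio below 0, where 47.3% of all measured loci did. The 12 markers summed to 1542 FPKM in control pups and 993 FPKM in BDE-47 pups. The joined locus of Lyz1 and Lyz2 weighs most in this sum, at 885 and 523 FPKM. Cd68, a lysosomal gene of macrophages, stood at 132 and 70.0 FPKM. The 5 measured B cell markers were below 0 and summed to 11.6 and 7.17 FPKM. Of 10 T cell markers, which bear on Thy1, 4 were measured, 2 above and 2 below 0. Cd3e and Cd3g, parts of the T cell receptor complex, were at 0.829 and 0.727 FPKM in control pups and 1.40 and 1.19 FPKM in BDE-47 pups. Both passed the filter through their BDE-47 values alone, which fixed their direction. Il7r, an interleukin receptor gene of lymphocytes, had 9.99 and 4.53 FPKM.

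The measured genes used here as markers of hepatocytes and the epididymis were lower in BDE-47 pups. The paper describes lower fibrinogen and apolipoprotein genes as expression changes in gonadal adipose tissue. All 12 hepatocyte markers were below 0, 11 of them at least 2-fold (4.24% of all measured loci). They summed to 916 FPKM in control pups and 228 FPKM in BDE-47 pups. Alb, the albumin gene, stood at 362 and 24.6 FPKM. The exception, the joined locus of Serpina1a and its relatives (chosen after its value was seen), which encode the plasma protease inhibitor alpha-1 antitrypsin, stood at 247 and 179 FPKM, 1.39-fold lower. Of the epididymis markers, 6 of 10 were measured and all 6 were at least 2-fold lower, summing to 49.0 and 0.724 FPKM, with Defb38 and Defb28 listed at 0 in BDE-47 pups. The 12 adipocyte markers, among which Fabp4 weighs most, summed to 49943 and 50534 FPKM, with 7 above and 5 below 0. Whether RNA of liver or epididymis was in the pads was not tested, nor was any part of it in the values of the 10 genes.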

How the data were processed

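The group values come from fat pads of 7 pups, sequenced single-end from poly(A) libraries, after the authors left out a further control library with fewer reads. The authors aligned reads to mm10 (TopHat2), built transcripts in Cufflinks 2.1.1 and ran Cuffdiff 2.1.1 on the groups (from the paper's methods and the labels). They deposited the log2 of 1 FPKM value per group, with a group at 0 FPKM listed at −10. The sources used here name no annotation, strand setting or scaling between libraries. The table also holds the authors' own ratios, q values and calls, which were not used. 0 columns of single pups were left out.

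Ratios were recomputed from the group columns, which have 2 decimals, with no pseudocount. Where a symbol had several loci, the most abundant was used, and joined loci entered a list's count once. Genes named from a list are up to 4 past 1.5-fold with the highest mean, or the 3 most abundant where fewer than 2 are past it; others are marked in the text. The 10 genes and the lists were chosen with earlier results of these data known. Stretches of 75 bases were matched exactly on both strands in GENCODE vM21 transcripts (GRCm38, the assembly of mm10). Counts and medians were tested on simulated data. Alternatives changed the pseudocount, filter, scaling, fold threshold and choice of locus. Python 3.11.15, pandas 2.3.3, numpy 2.4.6 and matplotlib 3.10.9 were used.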

Additional observations from a re-analysis of the deposited data

How the results depend on the processing

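The ratios of the 10 genes kept their sign under the alternatives run. The largest moves were those of Dact2, from −0.74 to −0.52 with 1 FPKM added, and of Cd55, from −0.38 to −0.12 at its joined locus, an alternative chosen after seeing the data. The median of −0.14 was −0.04 over loci with 1 name, and also −0.04 above 5 FPKM, where fewer genes remain; over 8 alternatives it ran from −0.15 to −0.04. At 1.5-fold, 1 of the 10 genes was lower in place of 0. In the 5 progenitor and stromal lists, 1 locus was at least 2-fold higher with no filter (Dlk1, at 0.119 and 0.5 FPKM), 2 were higher and 4 lower at 1.5-fold, and 0 were lower with 1 FPKM added. Scaling moved ratios by 0.01. No pup could be left out, and no paired analysis was possible because the columns carry no replicates. The differences were not set against the spread between pups, because the table holds no values of single pups and the authors' q values were not used; it also holds no depth per library.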
